A study of Homo sapiens with 12 samples.

Results

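The genes described here encode the WNT ligands, their receptors and the secreted proteins that block them, as read from the RNA of 2 human uterine leiomyosarcoma (uLMS) cell lines. A gene was a member if its symbol was that of a WNT ligand, a frizzled receptor (FZD), a Dickkopf (DKK) or secreted frizzled-related (SFRP) antagonist, a VANGL or CELSR planar polarity gene, or if it was LRP5, LRP6, ROR1, ROR2, AXIN2 or LGR5. The rule found 48 members among 60649 genes. They comprised 19 ligands, 10 frizzled receptors, 4 co-receptors, 4 DKK and 4 SFRP antagonists, 5 planar polarity genes and the 2 pathway targets AXIN2 and LGR5. The rule used names only, and no measured value.

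The lines differ in origin, which was a primary tumor for SK-UT-1B and a metastasis to the vulva for SK-LMS-1. Both were wild type in the labels and were kept for 72 h with DMSO (the solvent alone) or with MK-0752, gemcitabine and docetaxel together (the combination). SK-LMS-1 was also given MK-0752 alone. MK-0752 is a gamma secretase inhibitor, which blocks Notch receptor cleavage, gemcitabine blocks DNA synthesis and docetaxel stabilises microtubules. Each treatment was given at its own IC30 (a partly inhibitory concentration), so the MK-0752 concentration in the combination was lower than that of MK-0752 alone. IC30 values were set for each line, and the combination held less of each drug in SK-UT-1B than in SK-LMS-1. Each of the 6 groups held 2 libraries. The SK-LMS-1 DMSO libraries carry a leading 2 or 4 in their titles, as do the treated SK-LMS-1 libraries (2 for MK-0752 alone and 4 for the combination), so DMSO set 2 was the control for MK-0752 alone and DMSO set 4 the control for the combination. In SK-UT-1B, the leading number was 4 for DMSO and 3 for the combination. The labels do not say what these numbers stand for, nor that libraries of a group came from separate cultures, and if they did not, the p-values measure only the spread between these libraries. Each line is a single line from 1 tumor, so a difference between lines cannot be told apart from a difference between sites, donors or morphologies.

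WNT ligands are secreted lipid-modified proteins that bind frizzled receptors. In the beta-catenin branch of the pathway, a ligand brings a frizzled receptor together with the co-receptor LRP5 or LRP6, beta-catenin is no longer degraded, and TCF/LEF factors turn on targets such as AXIN2, itself a negative regulator of the pathway. DKK1 blocks LRP5 and LRP6, and SFRP proteins bind the ligands. In the other branch, ligands such as WNT5A act through frizzled receptors and the ROR1 and ROR2 receptor kinases on cell movement and polarity, with the membrane proteins VANGL and CELSR as core parts. WNT signaling is active in uterine development, and beta-catenin activity is known from smooth muscle tumors of the uterus.

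The members with the largest difference in each direction between the lines, among those with a promoter sequence in the RefSeq table used, were DKK1 and VANGL2. Their promoters are shown because reads of each gene came from 1 line only. DKK1 (ENSG00000107984.10) lies on the plus strand at chr10:52314281-52318042 and VANGL2 (ENSG00000162738.6) on the plus strand at chr1:160400564-160428670 (hg38). The 250 bases before each start site, chr10:52314031-52314280 and chr1:160400314-160400563 (RefSeq, GRCh38.p14), are written in the 5′ to 3′ direction with the letters CTTTG or their reverse complement CAAAG, the core of the TCF/LEF motif, in capitals.
DKK1: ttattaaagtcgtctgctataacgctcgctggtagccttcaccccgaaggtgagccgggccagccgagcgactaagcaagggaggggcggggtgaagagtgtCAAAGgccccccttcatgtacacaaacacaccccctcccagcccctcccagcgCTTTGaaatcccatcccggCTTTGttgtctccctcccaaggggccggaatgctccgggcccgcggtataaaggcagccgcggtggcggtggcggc
VANGL2: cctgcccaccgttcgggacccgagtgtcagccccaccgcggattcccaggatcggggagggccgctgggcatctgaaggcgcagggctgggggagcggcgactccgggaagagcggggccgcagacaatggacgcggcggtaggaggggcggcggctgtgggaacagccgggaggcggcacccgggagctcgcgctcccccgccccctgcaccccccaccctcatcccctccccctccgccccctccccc
The DKK1 window held these letters 3 times and the VANGL2 window 0 times. They were present in 7 of 36 windows of the 32 members in the table, and in 42.1% of all 35116 windows of the same length. The longer form CTTTGNN with A or T at each N, searched on both strands, was found 2 times in the DKK1 window, in no other window of a member, and in 11.96% of all windows (the longer form contains the shorter one). The median GC content was 58% over all windows. It was 62.8% in the DKK1 window and 76.4% in the VANGL2 window, and member windows ran from 45.2% (WNT8B) to 87.2% (LRP5). The part of base composition in these shares was not tested. These matches describe the sequence and say nothing on binding.

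The libraries held 25250057 to 40709885 counts. Of the 48 members, 42 had at least 1 read and 6 (DKK4, WNT2, WNT8A, WNT8B, WNT9B and WNT10A) had none in any library. A count of 3 in a library was taken as the floor, which is at most 0.123 CPM (a count scaled to the size of its library). Reads came from SK-LMS-1 only for 4 members (DKK1, WNT4, WNT7A and WNT16) and from SK-UT-1B only for 7 (FZD10, SFRP4, SFRP5, VANGL2, WNT1, WNT3A and WNT6). Low members were unstable between paired libraries. In 17 of 288 cases, a member had 0 counts in 1 library of a group and at least 20 in the other, and these cases fell on 12 members. CPM here used scaled library sizes (TMM), and n is the number of libraries.

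**Figure D1:**
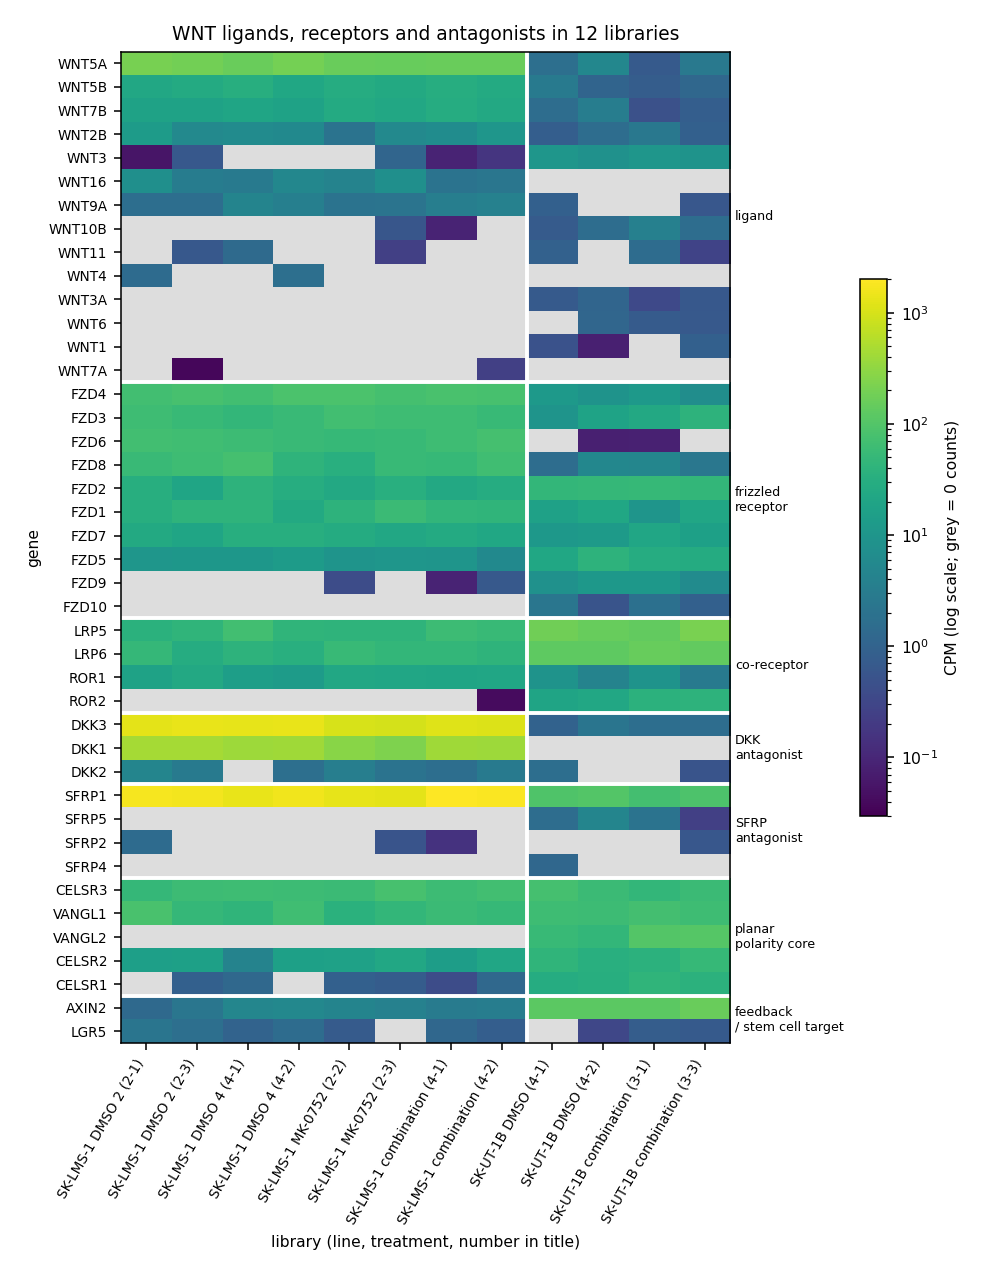
CPM of the 42 members with reads (rows, grouped by role) in the 12 libraries (columns, with the numbers of their titles), on a log color scale with grey for 0 counts. The left 8 columns are SK-LMS-1 and the right 4 are SK-UT-1B, and the main change of color is at the border between the lines rather than between treatments.

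Markers were checked first, since both lines are labelled as uLMS. Of 9 smooth muscle markers tested after DMSO, SK-LMS-1 had 7 higher and 1 (DES) lower, where 17.0% of all genes were higher and 14.1% lower. CALD1 reached 307 to 399 CPM in SK-LMS-1 and 42.8 to 46.7 CPM in SK-UT-1B, while MYH11, the smooth muscle myosin, had at most 0.150 CPM in either line. The epithelial keratin KRT8 was at 87.0 to 109.5 CPM in SK-LMS-1 and at 0 in all 4 SK-UT-1B libraries, and the epithelial cadherin CDH1 had at most 0.0796 CPM. Of 5 epithelial markers tested, 4 were higher in SK-LMS-1 and 0 lower, and of 3 endothelial markers 1 was higher (PECAM1, at 1.46 to 7.93 CPM in SK-LMS-1 and 0 counts in SK-UT-1B). Leukocyte markers were at or under 2.47 CPM in every library. The lines therefore differ in differentiation markers as well as in the members, and the part of that difference in the results below was not tested.

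The first question was how the 2 lines differ in their WNT genes without drug. After DMSO, SK-LMS-1 expressed the secreted antagonists DKK1, DKK3 and SFRP1 and the ligands WNT5A, WNT5B and WNT7B at high or moderate levels, while SK-UT-1B expressed more LRP5, LRP6, ROR2, VANGL2, CELSR1 and WNT3. AXIN2 was 5.31 ± 0.222 (SE) lower in SK-LMS-1 on the log2 scale. A member was called if its log2 fold change (log2FC) was at least 1 in size at an adjusted p under 0.05 over 21114 genes (edgeR). Of the 40 members that passed the filter on low counts, 14 were upregulated in SK-LMS-1, against 17.0% of all genes tested, and 14 were downregulated, against 14.1% of all genes. Members with reads in 1 line only pass such a filter through that line, so these shares are a description. The 8 members not tested were DKK4, SFRP4, WNT2, WNT7A, WNT8A, WNT8B, WNT9B and WNT10A.

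The comparison after the combination used other libraries of the same lines, with different drug concentrations in each line. In it, 13 of 40 members were higher in SK-LMS-1 (15.6% of all genes) and 10 were lower (9.88% of all genes). Both comparisons called 12 of the same members higher and 10 of the same members lower. FZD3 and FZD7 were called higher after DMSO only and FZD1 after the combination only. FZD1 had 45.1 and 43.7 CPM in SK-LMS-1 and 9.86 and 21.1 CPM in SK-UT-1B after the combination (log2FC 1.53 ± 0.335, SE, adjusted p = 0.001243, edgeR), and its log2FC after DMSO was 0.80. SFRP5, FZD10, WNT3A and WNT10B were called lower after DMSO only. The highest of these 4 was SFRP5 with 4.70 CPM, and whether the line difference itself changed with treatment is given with the treatment results.

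Among secreted antagonists, 3 of 6 tested members were higher in SK-LMS-1 after DMSO (17.0% of all genes) and 1 was lower (14.1% of all genes). DKK1, the inhibitor of LRP5 and LRP6, was at 450.7 and 450.1 CPM in DMSO set 2 and at 389.7 and 413.5 CPM in DMSO set 4 of SK-LMS-1, and no SK-UT-1B library held a DKK1 count. The lower bound of this excess was 4645-fold after DMSO and 4279-fold with the combination, with the SK-UT-1B level set at the floor of 3 counts per library. Such bounds, here and below, cover counting error only and not the spread between libraries. An antisense gene, PRKG1-AS1, covers 10.2% of the exon bases of DKK1 and reached 5.09 CPM at most, and its part in the DKK1 counts was not tested.

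DKK3, a divergent Dickkopf protein that does not act on LRP6 like DKK1, was at 1254, 1384, 1312 and 1384 CPM in SK-LMS-1 given DMSO and at 1.00 and 2.28 CPM in the 2 SK-UT-1B DMSO libraries. Its log2FC was 9.63 ± 0.275 (SE, adjusted p = 1.224e-14, edgeR). USP47 covers 47.5% of the DKK3 exon bases on the other strand. USP47 was at 97.1 to 120.5 CPM in SK-LMS-1 and 104 to 155.5 CPM in SK-UT-1B, and its part in the DKK3 counts was not tested.

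SFRP1, which binds WNT ligands outside the cell, was the most abundant antagonist of both lines. Its CPM after DMSO was 1732, 1633, 1411 and 1543 in SK-LMS-1 and 95.5 and 101.6 in SK-UT-1B, a log2FC of 4.0 ± 0.144 (SE, adjusted p = 1.671e-14, edgeR). SFRP5 was the 1 antagonist that was lower in SK-LMS-1, with 0 counts in all 8 SK-LMS-1 libraries and 1.56 and 4.70 CPM in the SK-UT-1B DMSO libraries (at least 31.7-fold). DKK2 ranged from 0 to 4.76 CPM in SK-LMS-1 and from 0 to 1.66 CPM in SK-UT-1B, and was not called. SFRP2 had reads in 4 of 12 libraries and SFRP4 in 1. Per kilobase of exon (all annotated exons of a gene merged), DKK and SFRP genes summed to 606 ± 91.9 CPM per kb (SD, n = 8) in SK-LMS-1 and 20.6 ± 3.25 (SD, n = 4) in SK-UT-1B. SFRP1 made up 51.1% to 59.6% of that sum in SK-LMS-1 and 88.9% to 96.6% in SK-UT-1B, and DKK1 23.4% to 30.5% in SK-LMS-1. These shares depend on the merged length, which was 11.958 kb for DKK3, 4.733 kb for SFRP1 and 2.221 kb for DKK1. The length of the transcripts present was not measured. By CPM, DKK3 (mean 1204, n = 8) was above DKK1 (mean 378.3, n = 8) in SK-LMS-1.

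**Figure D2:**
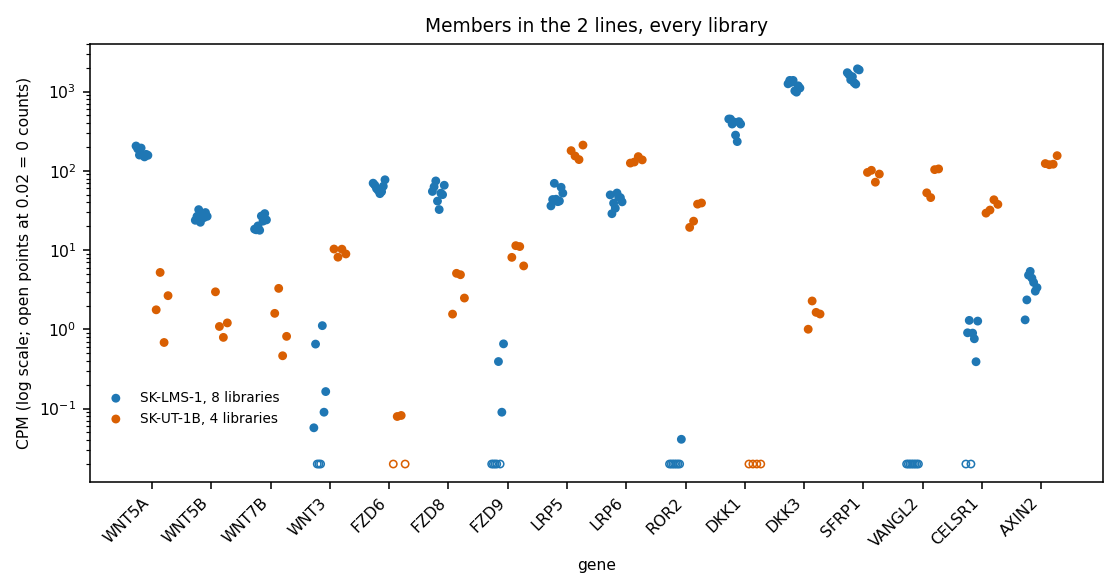
CPM (log axis) of 16 members in every SK-LMS-1 library (blue, 8) and SK-UT-1B library (orange, 4), with open points at the bottom for 0 counts. The lines do not overlap for any of these members, and DKK1 and VANGL2 have reads in 1 line only. All 16 were picked from members called between the lines after DMSO, so the lack of overlap is a description. VANGL1 and CELSR3, not drawn here, overlapped, and the share of all genes without overlap was not computed.

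The ligands differed in identity as well as in amount. WNT5A, the main ligand of the planar polarity and ROR branch, had 206, 189, 158 and 194 CPM in SK-LMS-1 given DMSO and 1.77 and 5.23 CPM in SK-UT-1B, with a log2FC of 5.71 ± 0.624 (SE, adjusted p = 0.0001765, edgeR). The related WNT5B had 23.8, 26.7, 32.4 and 22.4 CPM in SK-LMS-1 and 2.98 and 1.09 CPM in SK-UT-1B (log2FC 3.71 ± 0.414, SE). WNT7B, a ligand of the beta-catenin branch in epithelia, had 18.4, 18.04, 20.2 and 17.8 CPM in SK-LMS-1 and 1.59 and 3.29 CPM in SK-UT-1B (log2FC 2.92 ± 0.387, SE). None of these 3 called ligands overlapped between the lines, and the share of all genes without overlap was not computed. After DMSO, WNT16 was at 2.88 to 7.57 CPM in SK-LMS-1, with 0 counts in SK-UT-1B (at least 50.9-fold).

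WNT2B was higher in SK-LMS-1 by a log2FC of 2.67 ± 0.756 (SE, adjusted p = 0.007377, edgeR), from 5.58 to 13.4 CPM against 0.831 and 1.57 CPM. Without SK-UT-1B DMSO replicate 1 it was not called (log2FC 2.24, adjusted p = 0.06901). After the combination the WNT2B call was lost without SK-LMS-1 combination replicate 2 (1.95, adjusted p = 0.1974) and without SK-UT-1B combination replicate 3 (1.75, adjusted p = 0.2109). ST7L, with 14.7 to 23.5 CPM in SK-LMS-1 and 12.8 to 19.7 CPM in SK-UT-1B, covers 21.5% of the WNT2B exon bases on the other strand.

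The ligands called lower in SK-LMS-1 were WNT3, WNT10B and WNT3A, of the beta-catenin branch. The branches did not split by line, since WNT7B, of the same branch, was higher in SK-LMS-1. WNT3, an activating ligand, had 10.3 and 8.14 CPM in the SK-UT-1B DMSO libraries. In SK-LMS-1 it had 0.0573 and 0.652 CPM in DMSO set 2 and 0 counts in both libraries of set 4. Its log2FC was -7.96 ± 1.47 (SE, adjusted p = 0.0003639, edgeR). The 2 sets were averaged on the log scale, so this size depends on the small prior count that the fit adds where a set is at 0. Mean WNT3 after DMSO was 0.177 CPM in SK-LMS-1 (n = 4) and 9.23 CPM in SK-UT-1B (n = 2). WNT10B, at 0.727 and 1.59 CPM in SK-UT-1B, and WNT3A, at 0.692 and 1.11 CPM, had 0 counts in SK-LMS-1 after DMSO. Their bounds, for counting error only, were at least 11.8-fold (WNT10B) and at least 9.17-fold lower (WNT3A). WNT10B had 0 and 22 counts in the SK-LMS-1 MK-0752 libraries, so its bound does not cover the spread between libraries. The WNT3A call was at the threshold (adjusted p = 0.0498) and was lost when any 1 of the 6 DMSO libraries was left out (adjusted p 0.1172 to 0.1972). WNT1, WNT4, WNT6, WNT9A and WNT11 were tested and not called, and the highest value among them was 4.50 CPM (WNT9A, SK-LMS-1).

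Per kilobase, the ligands summed to 37.7 ± 2.25 CPM per kb (SD, n = 8) in SK-LMS-1 and 4.76 ± 0.328 (SD, n = 4) in SK-UT-1B. WNT5A made up 59.1% to 69.1% of the SK-LMS-1 sum and 1.87% to 14.7% of the SK-UT-1B sum. WNT3 made up at most 0.583% in SK-LMS-1 and 30.4% to 41.9% in SK-UT-1B. WNT10B made up 6.11% and 12.32% of the SK-UT-1B sum after DMSO and 27.98% and 13.93% after the combination. In SK-UT-1B the shares rest on 13 to 376 counts per library for WNT3, WNT3A and WNT10B.

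**Figure D3:**
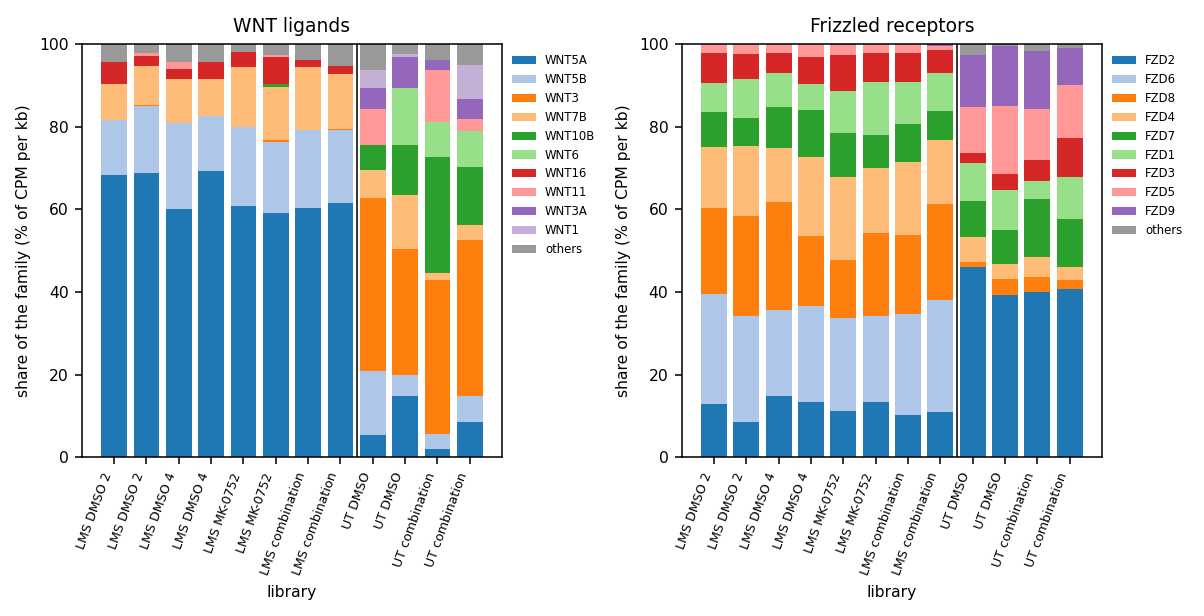
Share of each WNT ligand (left) and frizzled receptor (right) in its family's CPM per kilobase of exon (percent, stacked), in each library; LMS is SK-LMS-1, UT is SK-UT-1B, and genes under 5% in every library are in grey. WNT5A fills at least 59.1% of every SK-LMS-1 bar and WNT3 at least 30.4% of every SK-UT-1B bar, and FZD2 is the largest receptor share in all SK-UT-1B libraries.

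All 10 frizzled receptors were tested, of which SK-LMS-1 had 5 higher and 3 lower after DMSO (17.0% and 14.1% of all genes). FZD6, which is tied to planar polarity, had 69.9, 66.0, 59.8 and 56.7 CPM in SK-LMS-1 and 0 to 3 counts in the SK-UT-1B libraries (at least 687.7-fold without drug and at least 748.6-fold with the combination). FZD8 had 54.99, 62.9, 74.6 and 41.5 CPM against 1.56 and 5.09 CPM, a log2FC of 4.12 ± 0.558 (SE, adjusted p = 0.0001779, edgeR). FZD3 (log2FC 1.97) and FZD7 (log2FC 1.17) were also higher there after DMSO, and after the combination their log2FC values of 0.87 and 0.39 were under the threshold.

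FZD4, a receptor for norrin as well as for WNT ligands, had 69.98, 78.9, 68.0 and 84.6 CPM in SK-LMS-1 and 11.9 and 8.99 CPM in SK-UT-1B (log2FC 2.85 ± 0.249, SE, adjusted p = 1.184e-08, edgeR). PRSS23 covers 18.9% of the FZD4 exon bases on the other strand and differed in the same direction, with 800.0 to 957 CPM in SK-LMS-1 and 0 to 8.94 CPM in SK-UT-1B. The strand setting of the counting is not given in the sources used here, so the part of PRSS23 reads in the FZD4 difference was not tested.

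Lower in SK-LMS-1 were FZD5, FZD9 and FZD10. FZD9 had 8.10 and 11.4 CPM in SK-UT-1B and 0 counts in the 4 SK-LMS-1 DMSO libraries (at least 98.9-fold, for counting error only). In treated SK-LMS-1 libraries FZD9 had 3 and 16 counts (combination) and 14 and 0 counts (MK-0752). FZD10 had 2.39 and 0.531 CPM in SK-UT-1B and 0 counts in all 8 SK-LMS-1 libraries (at least 14.8-fold), and without SK-UT-1B DMSO replicate 1 it was not called (adjusted p = 0.09645, edgeR). FZD5 had 21.95 and 39.0 CPM in SK-UT-1B against 10.2 to 13.1 CPM in SK-LMS-1 (log2FC -1.45 ± 0.2998, SE), and without SK-UT-1B DMSO replicate 2 its log2FC of -0.97 was under the fold threshold. After the combination FZD9 was lower in SK-LMS-1 by 4.56 on the log2 scale, a call that was lost without SK-LMS-1 combination replicate 1 (log2FC -3.74, adjusted p = 0.06444). FZD2 had the smallest log2FC in size of the 10 receptors after DMSO, at 20.8 to 39.2 CPM in SK-LMS-1 and 47.9 and 49.9 CPM in SK-UT-1B, with a log2FC of -0.70, under the fold threshold. Per kilobase, frizzled genes summed to 64.3 ± 4.48 CPM per kb (SD, n = 8) in SK-LMS-1 and 31.3 ± 2.97 (SD, n = 4) in SK-UT-1B, and FZD2 made up 39.3% to 46.0% of the SK-UT-1B sum. FZD6 had 20.8% to 27.2% and FZD8 14.1% to 26.2% of the sum in SK-LMS-1.

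All 4 co-receptors were called after DMSO, 1 higher and 3 lower in SK-LMS-1 (17.0% and 14.1% of all genes). LRP5 and LRP6, the partners of frizzled receptors in the beta-catenin branch, were both lower in SK-LMS-1. LRP5 had 36.1, 43.5, 69.6 and 43.9 CPM there against 179.9 and 154 CPM in SK-UT-1B (log2FC -1.81 ± 0.191, SE, adjusted p = 1.742e-07, edgeR). LRP6 had 49.7, 28.8, 39.1 and 33.8 CPM against 125.4 and 129 CPM (log2FC -1.75 ± 0.184, SE, adjusted p = 1.657e-07, edgeR). The lines did not overlap in either gene, and the share of all genes without overlap was not computed. The receptor kinases ROR1 and ROR2 went in opposite directions. ROR2 had 19.4 and 23.2 CPM in SK-UT-1B after DMSO and 0 counts in the 4 SK-LMS-1 DMSO libraries (at least 216-fold lower; 1 count in 1 SK-LMS-1 combination library). ROR1 had 18.4, 23.9, 14.9 and 13.2 CPM in SK-LMS-1 and 8.90 and 4.27 CPM in SK-UT-1B (log2FC 1.39 ± 0.419, SE, adjusted p = 0.01093, edgeR), and without SK-UT-1B DMSO replicate 2 its log2FC was 0.96 and it was not called (adjusted p = 0.1201). After the combination the ROR1 log2FC was 1.81, with 2.86 without SK-UT-1B combination replicate 1, and without SK-UT-1B combination replicate 3 it was 1.21 and not called (adjusted p = 0.05301).

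Of the 5 planar polarity genes, 3 were lower in SK-LMS-1 after DMSO (14.1% of all genes) and 0 were higher (17.0% of all genes). VANGL2 had 52.8 and 46.0 CPM in SK-UT-1B after DMSO, 103.6 and 105.8 CPM after the combination, and 0 counts in all 8 SK-LMS-1 libraries (at least 501.5-fold). Its paralog VANGL1 overlapped between the lines at 36.4 to 81.0 and 60.3 to 72.1 CPM, with a log2FC of -0.05. CELSR1 had 29.3 and 32.0 CPM in SK-UT-1B against 0, 0.906, 1.30 and 0 CPM in SK-LMS-1 (log2FC -5.90 ± 1.34, SE, adjusted p = 0.01066, edgeR). Its log2FC was -9.60 without SK-LMS-1 DMSO set 4 replicate 1 and also over 1.5 times as large without set 2 replicate 3, the libraries with CELSR1 reads. CELSR2 was lower in SK-LMS-1 by 1.52 ± 0.384 (SE), with 16.0, 16.6, 4.26 and 16.9 CPM against 42.8 and 32.7 CPM. The CELSR2 call after the combination was lost without SK-LMS-1 combination replicate 1 (log2FC -1.08, adjusted p = 0.06826, edgeR). CELSR3 overlapped, at 49.3 to 80.0 and 47.0 to 74.2 CPM. Per kilobase, VANGL2 made up 35.7% to 53.3% of the 5 genes in SK-UT-1B, and in SK-LMS-1 VANGL1 (40.5% to 65.1%) and CELSR3 (25.9% to 47.8%) made up most of the sum.

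AXIN2 and LGR5 are both read as target genes of the beta-catenin branch. AXIN2 was called between the lines and LGR5 was not, and the genes were not tested against each other. AXIN2 had 1.32 and 2.35 CPM in DMSO set 2 and 4.83 and 5.39 CPM in DMSO set 4 of SK-LMS-1, against 123.5 and 119.5 CPM in SK-UT-1B (log2FC -5.31 ± 0.222, SE, adjusted p = 1.482e-13, edgeR). After the combination its log2FC between the lines was -5.44 ± 0.298 (SE). LGR5, the R-spondin receptor that marks stem cells in several epithelia, was low in both lines, at 1.01 to 2.21 CPM in SK-LMS-1 and at 0 and 0.318 CPM in SK-UT-1B after DMSO, and it was not called (log2FC 3.26 ± 2.18, SE, adjusted p = 0.2445).

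The other genes of the pathway were read from 7 lists, whose counts stand beside the 17.0% higher and 14.1% lower of all genes. Of 14 frequent beta-catenin targets, SK-LMS-1 had 9 lower and 2 (CCND1 and CD44) higher after DMSO, with a median log2FC of -3.52 against 0 over all genes tested. Leading in each direction were APCDD1, a membrane inhibitor of the pathway with 0 counts in the 4 SK-LMS-1 DMSO libraries and 78.5 and 56.9 CPM in SK-UT-1B (at least 687-fold lower), and CD44, an adhesion receptor with a log2FC of 7.14 ± 0.156 (SE). CD44 had 2376 to 3055 CPM in SK-LMS-1 and 13.8 to 18.9 CPM in SK-UT-1B. Of 8 nuclear effectors, 4 were lower and 0 higher. LEF1, the factor with the lowest log2FC among them, had 11.98, 10.9, 4.63 and 6.95 CPM in SK-LMS-1 and 292.5 and 245 CPM in SK-UT-1B (log2FC -5.04 ± 0.185, SE, adjusted p = 2.118e-14, edgeR). LEF1 is itself a frequent target of beta-catenin, and both LEF1 and another TCF/LEF factor, TCF7, stand in both lists. Among the lists below, NOTUM (ligand removal) and RNF43 and ZNRF3 (ubiquitin ligases) also stand in the target list. The counts of these lists are therefore not independent.

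Of the 7 genes for ligand secretion and removal, SK-LMS-1 had 2 higher and 3 lower after DMSO. PORCN, which adds the lipid to WNT ligands, was higher with a log2FC of 1.90 ± 0.448 (SE), a call lost without SK-UT-1B DMSO replicate 1 (1.25, adjusted p = 0.05304, edgeR), and without replicate 2 the log2FC was 3.0. WLS, which carries ligands to the membrane, was the 1 gene of the list that was higher after the combination (log2FC 1.33). NOTUM, an enzyme that removes the lipid, had 13.3 and 6.21 CPM in SK-UT-1B after DMSO and 0 counts in all SK-LMS-1 libraries. Of 8 R-spondin, LGR and ubiquitin ligase genes, 3 were lower and 0 higher, led by RSPO4, a ligand that raises receptor levels, with 15.3 and 12.8 CPM in SK-UT-1B and 0 counts in SK-LMS-1 (at least 143-fold). Of 12 other antagonists and accessory receptors tested, 4 were lower and 2 higher, the latter close to the share of all genes. KREMEN2, a DKK1 receptor, was at 8.24 and 16.8 CPM in SK-UT-1B and at 0 counts in SK-LMS-1 after DMSO, and NDP, which encodes the FZD4 ligand norrin, was at 4.07 to 9.62 CPM in SK-LMS-1 and at 0 counts in SK-UT-1B (at least 71.6-fold higher).

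Dishevelled and destruction complex genes had the fewest calls of the lists. Of 18 genes, 1 (APC2, log2FC -2.42 ± 0.787, SE) was lower in SK-LMS-1 and 0 were higher, with a median log2FC of -0.13, and CTNNB1, which encodes beta-catenin, overlapped at 231 to 292 CPM in SK-LMS-1 and 192 to 267 CPM in SK-UT-1B. The APC2 call was lost without SK-UT-1B DMSO replicate 2 (-2.13, adjusted p = 0.05657, edgeR), and without SK-LMS-1 DMSO set 2 replicate 3 the log2FC was -4.02. After the combination the called gene was AXIN1 (-1.02), whose log2FC was under 1 in size without SK-LMS-1 combination replicate 2 (-0.80) or SK-UT-1B combination replicate 1 (-0.80). Of 17 planar polarity effectors, 4 were higher and 2 lower after DMSO, close to the shares of all genes. FAT4, a large cadherin, had 67.7 to 112 CPM in SK-LMS-1 and 0 to 0.637 CPM in SK-UT-1B (log2FC 7.38 ± 0.516, SE). SCRIB was lowest after DMSO (log2FC -1.28 ± 0.226, SE) and DCHS1, the partner of FAT4, lowest after the combination (-1.14 ± 0.204, SE). The DCHS1 log2FC was -0.84 without SK-UT-1B combination replicate 3.

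**Figure D4:**
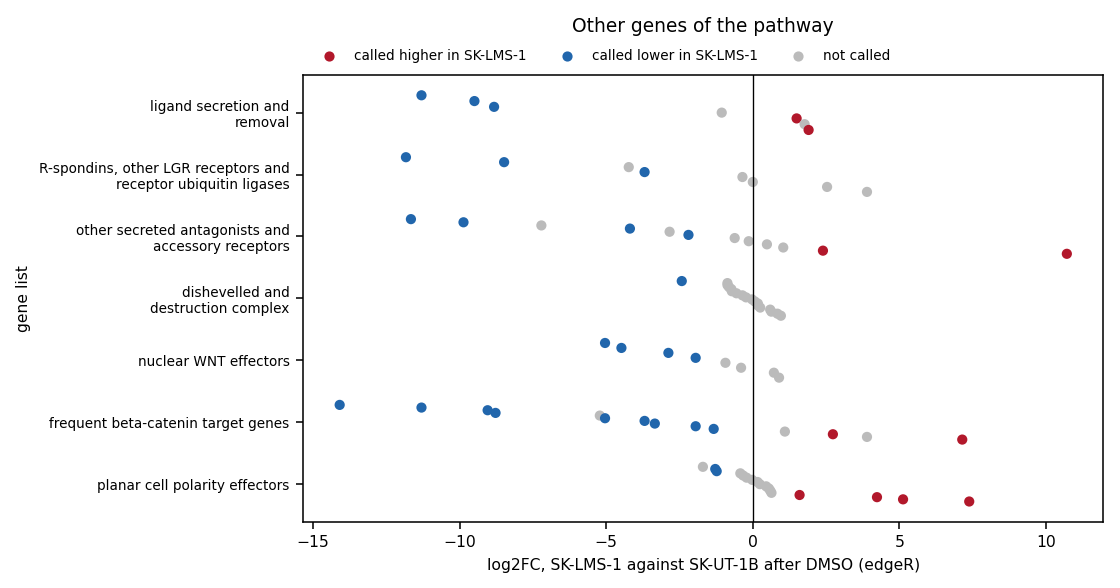
log2FC of SK-LMS-1 over SK-UT-1B after DMSO (x axis, edgeR) for each tested gene of the 7 pathway lists (rows), red and blue for genes called higher and lower in SK-LMS-1. Targets and nuclear effectors lie mostly to the left and the 18 dishevelled and destruction complex genes mostly near 0. The most extreme values belong to genes at or near 0 counts in 1 line and depend on the prior count of the fit.

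The next question was which members changed with treatment. In SK-LMS-1, MK-0752 alone called 0 members with edgeR (0.251% of all genes were called), 6 of 40 members had an unadjusted p under 0.05 (1354 of 21114 genes did), and DESeq2 called 1, AXIN2. DKK1 came nearest among the abundant members. It had 282.4 and 234.0 CPM after MK-0752, under all 4 SK-LMS-1 DMSO libraries (389.7 to 450.7 CPM) and both combination libraries (417 and 389 CPM). Its log2FC was -0.80 ± 0.153 (SE) with an adjusted p of 0.02552 (edgeR), so it passed the p threshold and not the fold threshold. Over the other settings the adjusted p ran from 1.847e-05 (DESeq2) to 0.297, and it was above 0.05 without MK-0752 replicate 3 (log2FC -0.67, adjusted p = 0.297, edgeR) or DMSO set 2 replicate 1 (log2FC -0.80, adjusted p = 0.08266). SFRP1 had 1298 and 1242 CPM after MK-0752, again under the 4 DMSO libraries (1411 to 1732 CPM), with a log2FC of -0.41 ± 0.134 (SE, adjusted p = 0.3993, edgeR).

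AXIN2 depended on which controls were used. It had 4.43 and 3.91 CPM after MK-0752, above its own DMSO set 2 (1.32 and 2.35 CPM) and below DMSO set 4 (4.83 and 5.39 CPM). Against set 2 the log2FC was 1.20 ± 0.277 (SE, adjusted p = 0.0771, edgeR), and against all 4 DMSO libraries it was 0.27 (adjusted p = 1). Set 4 against set 2, both without drug, gave 1.49 ± 0.277 (SE, adjusted p = 0.236, edgeR). Without DMSO set 2 replicate 3 the effect of MK-0752 was called (log2FC 1.64, adjusted p = 0.004587), as it was without MK-0752 replicate 3 (1.29, adjusted p = 0.04252), while the log2FC was 0.83 without DMSO set 2 replicate 1, and these counts were low (46 to 208 in a SK-LMS-1 library). Between the DMSO sets, edgeR called 0 members (0.00% of all genes), 3 of 40 had an unadjusted p under 0.05 (1197 of 21114 genes), and DESeq2 called 1, AXIN2. The set comparison called AXIN2 without set 2 replicate 3 (1.94), set 4 replicate 1 (1.57) or set 4 replicate 2 (1.39).

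TCF7, a TCF/LEF factor, was the 1 gene of the 7 lists that was called after MK-0752 alone. It had 4.96 and 6.03 CPM against 16.99 and 16.5 CPM in DMSO set 2 and 15.7 and 25.01 CPM in DMSO set 4, a log2FC of -1.60 ± 0.298 (SE, adjusted p = 0.01649, edgeR). With the libraries of this comparison alone in the model, its adjusted p was 0.05401. LGR5 had 0.729 and 0 CPM after MK-0752 against 2.21 and 1.70 CPM (log2FC -2.41 ± 2.22, SE, adjusted p = 0.9018, edgeR), and its log2FC was -8.97 without MK-0752 replicate 2 and -1.42 without replicate 3, so no difference was detectable at this depth.

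The combination called 0 members in SK-LMS-1 with edgeR (0.0237% of all genes), 3 of 40 had an unadjusted p under 0.05 (914 of 21114 genes), and DESeq2 called 0. AXIN2 had 3.03 and 3.37 CPM against 4.83 and 5.39 CPM in DMSO set 4 (log2FC -0.68 ± 0.267, SE, adjusted p = 0.9075, edgeR), and against all 4 DMSO libraries the log2FC was -0.12. LGR5 had 1.23 and 0.821 CPM against 1.01 and 1.53 CPM (log2FC -0.31 ± 2.11, SE, adjusted p = 1, edgeR). SFRP1 reached 1937 and 1878 CPM, above the 4 DMSO libraries, with a log2FC of 0.37 ± 0.133 (SE, adjusted p = 0.9075, edgeR). WNT5A stayed between 157 and 161.4 CPM, next to 158 and 194 CPM in its DMSO set.

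In SK-LMS-1, the effect of MK-0752 alone and that of the combination, each against its own DMSO set, differed for 0 members with edgeR (0.0379% of all genes), 3 of 40 had an unadjusted p under 0.05 (1094 of 21114 genes), and DESeq2 called 1, AXIN2. For AXIN2 the difference of the effects was 1.88 ± 0.385 (SE, adjusted p = 0.135, edgeR), and it was 0.38 (adjusted p = 1) when all 4 DMSO libraries served as the control of both. Leaving out 1 library at a time, AXIN2 was called in 6 of 8 cases, with differences of 1.77 to 2.31 (adjusted p 0.0006891 to 0.02634), and not without DMSO set 2 replicate 1 (1.49) or combination replicate 1 (1.79). The 2 treatments also differed in the MK-0752 concentration. For SFRP1 the difference was -0.77 ± 0.189 (SE, adjusted p = 0.3302, edgeR) and for DKK1 -0.81 ± 0.215 (SE, adjusted p = 0.5089, edgeR).

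In SK-UT-1B, the combination called 1 of 40 members, against 0.559% of all genes. WNT7B was downregulated, from 1.59 and 3.29 CPM (46 and 124 counts) after DMSO to 0.465 and 0.816 CPM (17 and 23 counts), a log2FC of -1.95 ± 0.435 (SE, adjusted p = 0.0420, edgeR). The call was lost without SK-UT-1B DMSO replicate 2 (-1.33, adjusted p = 0.2623) and without SK-UT-1B combination replicate 1 (-1.62, adjusted p = 0.1585), and with the libraries of the comparison alone in the model (adjusted p = 0.7817). In SK-LMS-1, WNT7B had 28.9 and 24.1 CPM after the combination against 20.2 and 17.8 CPM (log2FC 0.48 ± 0.378, SE, adjusted p = 0.9112, edgeR).

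VANGL2 and FZD3 had the next smallest adjusted p among uncalled members of SK-UT-1B. VANGL2 had 103.6 and 105.8 CPM after the combination, above the 52.8 and 46.0 CPM after DMSO (log2FC 1.08 ± 0.291, SE, adjusted p = 0.1258, edgeR), and it was called when every gene with a count was tested (adjusted p = 0.02224). FZD3 had 24.3 and 39.1 CPM against 9.38 and 18.7 CPM (log2FC 1.17 ± 0.292, SE, adjusted p = 0.07872, edgeR). FZD3 was called by DESeq2 (adjusted p = 0.02666), by edgeR when every gene with a count was tested (0.0005338), and without SK-UT-1B DMSO replicate 2 (1.75, adjusted p = 4.473e-05) or combination replicate 1 (1.44, adjusted p = 4.049e-05). Without SK-UT-1B DMSO replicate 1 the FZD3 log2FC was 0.74, and over all settings its adjusted p reached 0.61. AXIN2 had 121 and 155.4 CPM against 123.5 and 119.5 CPM (log2FC 0.19 ± 0.241, SE, adjusted p = 0.9852, edgeR), and LGR5 0.792 and 0.710 CPM against 0 and 0.318 CPM (log2FC 2.19 ± 2.22, SE, adjusted p = 0.8834, edgeR). The LGR5 value rested on single libraries, at 1.21 without SK-UT-1B DMSO replicate 1 and 7.58 without replicate 2. Since DMSO and combination libraries of this line differ in the leading number of their titles (4 and 3), the treatment and whatever that number marks cannot be told apart.

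The effect of the combination differed between the lines for 0 members with edgeR (0.232% of all genes), 6 of 40 had an unadjusted p under 0.05 (1619 of 21114 genes), and DESeq2 called 1, WNT7B. Drug concentrations in the combination also differed between the lines, and the part of this in the effects was not tested. The effect on WNT7B was higher in SK-LMS-1 by 2.43 ± 0.575 (SE, adjusted p = 0.1178, edgeR). Leaving out 1 library at a time, it was called in 5 of 8 cases, with a log2FC between 2.38 and 2.88 in those. For FZD3 and FZD7, called between the lines after DMSO only, the differences of the effects were -0.996 ± 0.406 and -1.02 ± 0.413 (SE, adjusted p = 0.6004 for each, edgeR). They were 0.79 ± 0.464 for FZD1 and 2.52 ± 2.79 for WNT10B (SE, adjusted p = 0.7121 and 0.9929, edgeR), and for SFRP5, FZD10 and WNT3A, with 0 counts in every SK-LMS-1 library, no difference of effects could be estimated.

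**Figure D5:**
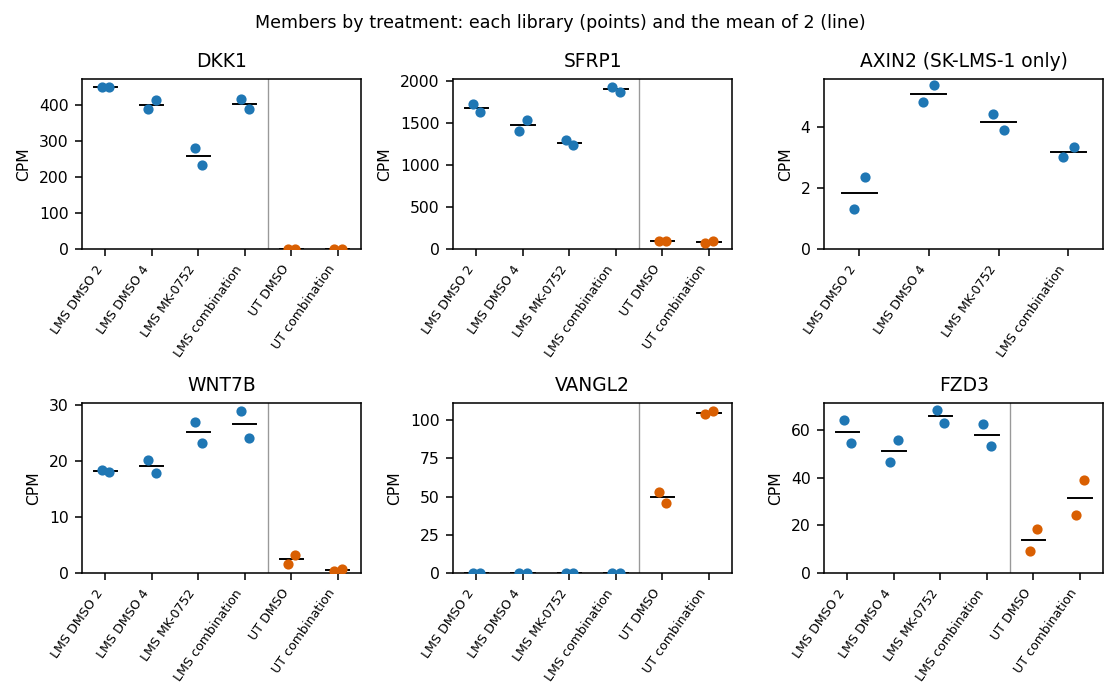
CPM of 6 members (linear axes from 0) in each library (points) with the mean of 2 libraries (black lines), by treatment, in SK-LMS-1 (blue) and SK-UT-1B (orange); the AXIN2 panel shows SK-LMS-1 only. DKK1 after MK-0752 lies under all other SK-LMS-1 groups at 234.0 and 282.4 CPM, and the 2 DMSO sets of AXIN2 lie on either side of its MK-0752 libraries.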

How the data were processed

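The authors exposed both lines to drug or DMSO for 72 h, prepared stranded, rRNA-depleted libraries and deposited 1 table of raw counts per gene (STAR 2.7.9a after Trim Galore 0.3.7, hg38); the submitters' processing notes also name DESeq2 1.42.0. The annotation, strand setting and handling of duplicates are not given in the sources used here. From these counts, edgeR 4.0.16 (R 4.3.3; TMM scaling, filterByExpr, robust quasi-likelihood test, two-sided) was fitted to all 12 libraries in 6 groups, with Benjamini-Hochberg adjustment over 21114 genes. SK-LMS-1 DMSO was the mean of both sets in the comparison of lines. Calls required a log2FC of 1 or more in either direction with an adjusted p below 0.05. The standard error is the log2FC divided by the square root of the F statistic. Genes with at most 3 counts in every library of a group got a fold bound against the mean of 3 counts per library, which covers counting error only. Exon lengths (all annotated exons of a gene merged) and overlaps came from GENCODE 44. Alternatives were DESeq2 1.42.0, its size factors in edgeR, other filters, fewer libraries and another control group. Replicate libraries differed beyond sampling noise (chi-square per degree of freedom 16.4 to 101). Promoter sequences were those of RefSeq (GRCh38.p14), matched by symbol. Members, gene lists and tests were chosen with earlier results of these data known. Values were given for each member called in at least 1 comparison, for AXIN2 and LGR5 under treatment, and for the called gene with the highest and lowest log2FC of each list; DKK1, SFRP1, VANGL2, FZD2, FZD3, CTNNB1, the markers and other uncalled members were added after their values were seen. Columns not used numbered 0.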

Additional observations from a re-analysis of the deposited data

Results flagged for a closer look

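Among the 4 SK-LMS-1 DMSO libraries, 3 of the 28 members called between the lines after DMSO had 1 library far from the other 3, judged by its gap to the nearest value over the whole range (Dixon's test for 4 values). WNT2B was at 13.4 CPM in set 2 replicate 1, with the others at 5.58 to 6.33 CPM. WNT3 was at 0.652 CPM in set 2 replicate 3, with the others at 0 to 0.0573 CPM. CELSR2 was at 4.26 CPM in set 4 replicate 1, with the others at 16.0 to 16.9 CPM. Chance flags about 1 in 20 such groups, and the 3 members were flagged in 3 different libraries.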

How the results depend on the processing

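The comparison of the lines kept its counts of members within 1.5 times of those reported, with 14 higher and 10 to 14 lower after DMSO over the alternatives and 12 to 13 higher and 9 to 12 lower after the combination. Leaving out 1 library gave 14 to 15 and 12 to 13 after DMSO and 12 to 14 and 8 to 11 after the combination. The treatment counts moved with the method. For the combination in SK-UT-1B, 1 member was called, against 2 with DESeq2, 3 when every gene with a count was tested, 0 when a mean of 50 counts was required, 0 with the libraries of the comparison alone, and 1 to 3 with 1 library left out (3 without SK-UT-1B combination replicate 3). DESeq2 and the unfiltered fit each called 1 member where 0 were reported for MK-0752 alone, for the DMSO sets, for the effect of the combination by line and for MK-0752 against the combination. Leaving out 1 library gave 0 to 2 for MK-0752 alone and for MK-0752 against the combination (2 without DMSO set 2 replicate 3 in both), 0 to 1 for the combination in SK-LMS-1 (1 without either DMSO set 4 library or combination replicate 1), 1 to 2 for the DMSO sets (1 without set 2 replicate 1) and 1 to 4 for the combination by line (4 without DMSO set 4 replicate 2). AXIN2 after the combination in SK-UT-1B had a log2FC of -0.001687 without combination replicate 3 (0.33 without replicate 1), and LGR5 after the combination in SK-LMS-1 had 0.04094 without DMSO set 4 replicate 2 (-0.62 without combination replicate 1), each of the opposite sign (adjusted p = 1, edgeR). Calls between the lines also lost under an alternative were WNT3A after DMSO (adjusted p = 0.1099 with DESeq2 and 0.07451 unfiltered with edgeR), APC2 after DMSO and ROR1 after the combination with the libraries of the comparison alone (0.08363 and 0.06084), and, after the combination, CELSR1 unfiltered (0.08266) and KREMEN2 with DESeq2 (0.08473). WNT7B in SK-UT-1B was lost when a mean of 50 counts was required (0.05823). The cause was not tested.

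Over all genes, calls by edgeR, DESeq2 and no filter were 118, 369 and 420 for the combination in SK-UT-1B (0 with its libraries alone), 53, 131 and 175 for MK-0752 alone (99 with its libraries alone), 5, 30 and 73 for the combination in SK-LMS-1, 0, 30 and 76 for the DMSO sets, 49, 143 and 303 for the combination by line, and 8, 41 and 89 for MK-0752 against the combination. Leaving out 1 library gave 328 to 1056, 116 to 270, 62 to 247, 79 to 327, 282 to 828 and 70 to 237 in the same order, so the background shares of the treatment comparisons rise with any 1 library left out. For the SK-LMS-1 combination, numbers 1 and 2 recur in the DMSO set 4 titles. Same-numbered libraries did not deviate together (correlation -0.01), and a fit with the replicate block called 0 members and 2 genes in all. Depth limited the low members: a member at the floor of 3 counts in both groups could not show a difference.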
